A study of Homo sapiens with 2 samples.

Results

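Caspases are cysteine proteases that cut proteins after aspartate and carry out apoptosis or inflammatory cell death, and APAF1 is the scaffold of the apoptosome, on which caspase-9 is activated. The genes described here are the caspase genes CASP1, CASP2, CASP4, CASP6, CASP8, CASP9 and CASP10 together with APAF1, 8 of the 44591 genes in a deposited count table, taken by gene symbol. All 8 passed the minimum of 10 reads over the pair of libraries, as did 19840 genes in all, and 7 had at least 100 reads. Total RNA was sequenced from HSC-1, a human cell line of cutaneous squamous cell carcinoma origin, after transfection with a control siRNA (siNC) or an siRNA against the long noncoding RNA LINP1 (siLINP1). Per the labels, the cells of each condition were transfected at 70% confluency, kept 6 h without serum and then 24 h in medium with 10% serum. The paper's methods give another confluency and another time. Each condition had 1 library, so no difference below has a replicate check and no p-value is given.

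Apoptosis starts along either of 2 routes. In the death receptor route, receptors such as FAS and DR5 recruit the adaptor FADD, which gathers caspase-8 and caspase-10. In the mitochondrial route, cytochrome c released from mitochondria binds APAF1, which assembles into the apoptosome and activates caspase-9. These initiators then cut and activate the executioner caspases. Caspase-2 is an initiator activated on a platform of PIDD1 and CRADD. Caspase-1 and caspase-4 belong to the inflammatory class, which cuts gasdermin D and leads to pyroptosis. Caspases are made as inactive precursors, so a level of mRNA does not measure their activity.

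Depth was 18829544 gene-assigned reads in siNC and 15383081 in siLINP1, scaled with median-of-ratios factors of 1.08 and 0.930. A positive log2 fold change means more in siLINP1, and the interval beside it is the exact 95% binomial interval (Clopper-Pearson) of how the reads divided, which covers counting error only. LINP1 itself went from 167 reads to 23, with log2 fold change -2.65 (95% interval -3.35 to -2.02). Of 12 marker genes of squamous keratinocytes, 8 were under 1 RPKM (reads scaled by gene length and by the total of the library) in siNC and 7 in siLINP1. Of 11 mesenchymal markers, 4 and 5 were under 1 RPKM, with medians of 3.43 and 1.96 RPKM, and VIM, the highest of them, had 1519 and 1278 RPKM. Most of these squamous markers, KRT5 and TP63 among them, were thus low in both libraries, while ITGB4, the most abundant of them, had 51.4 and 41.6 RPKM.

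The siRNA sequences are shown because the sites searched for in CASP10 and other mRNAs come from them. The oligonucleotide used for sequencing is not given in the sources used here. The targets in LINP1, written as DNA with capitals marking the bases that pair with bases 2 to 8 of the guide strand, are as follows.
siLINP1_01: ccaactgcgggACTTCAGa
siLINP1_02: cactctccagcCTGCAAGa
Each target has 1 exact match in GRCh37, on the plus strand of chromosome 10, at chr10:6780757-6780775 for siLINP1_01 and chr10:6780487-6780505 for siLINP1_02. Both lie in an exon of all 4 annotated LINP1 transcripts.

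The caspase and APAF1 mRNAs differed little between HSC-1 cells given siNC and those given siLINP1, apart from CASP1, which was scarcely expressed. By the 1.5-fold threshold, 0 of the 8 genes were higher in siLINP1, against 14.4% of all genes kept, and 1 was lower, against 13.0%. The 1 lower gene was CASP1. The counting interval lay above 0 for 1 of the 8, CASP8, against 23.0% of all genes kept, and below 0 for 3 of the 8, CASP1, CASP2 and APAF1, against 25.6%. It crossed 0 for the other 4, CASP4, CASP6, CASP9 and CASP10. The median log2 fold change of the 8 genes was -0.16, beside -0.023 over all genes kept. In bulk RNA, fewer cells of a type and less RNA per cell cannot be told apart.

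**Figure D1:**
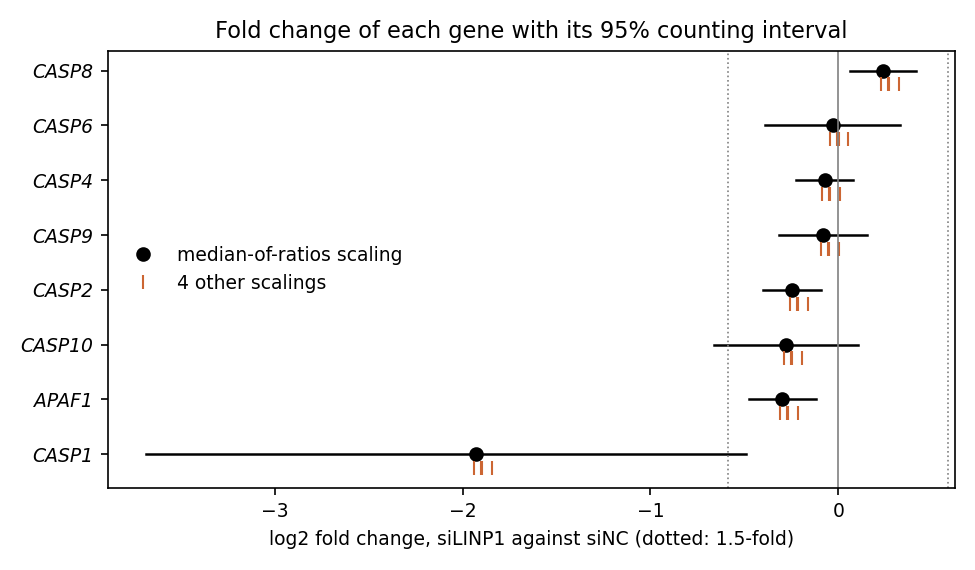
Log2 fold change of siLINP1 against siNC for the 8 genes, with 95% counting intervals (lines), 1 library per condition. Ticks give the value under 4 other scalings, and dotted lines mark 1.5-fold. CASP1 lies furthest from 0 at -1.93 with the widest interval, and CASP8 is the member whose interval lies above 0.

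CASP8 encodes the initiator of the death receptor route, which also restrains necroptosis. In the GRCh37 coordinates of the count table it lies on chromosome 2, plus strand (chr2:202098166-202152434). It was counted 527 times in siNC and 538 times in siLINP1, although the siLINP1 library was smaller, which is 7.69 and 9.61 RPKM. Its log2 fold change was 0.24 (95% interval 0.06 to 0.42), or 1.18-fold higher (1.04 to 1.33), short of 1.5-fold. Among the 3247 genes within a factor of 1.5 of its mean scaled count, 812 were at least as far above 0, so a difference of this size was common at this depth.

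CASP10, a close relative of CASP8 that also binds FADD, lies upstream on the same strand (chr2:202047604-202094129). It was counted 140 times in siNC and 100 times in siLINP1, or 1.11 and 0.973 RPKM. The log2 fold change of -0.28 had an interval from -0.66 to 0.10, so no difference was detectable at this depth. The log2 ratio of CASP8 to CASP10 was 0.51 higher in siLINP1 (95% interval 0.09 to 0.94), which needs no scaling between libraries. Summed over both genes, 667 reads in siNC and 638 in siLINP1 gave a log2 fold change of 0.15 (-0.01 to 0.30).

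CASP2 encodes the initiator activated on the PIDD1 platform (chr7:142985308-143004789, plus strand). It was counted 822 times in siNC and 600 times in siLINP1, or 10.0 and 8.96 RPKM. The log2 fold change was -0.24 (95% interval -0.40 to -0.09), 1.18-fold lower, and 23.6% of 3363 genes of like depth were at least as far below 0. Scaling by total count gave -0.16, with an interval from -0.32 to -0.0089 that barely cleared 0. The pseudogenes RN7SL481P and RN7SL535P lie within CASP2 on the same strand and had 7 and 2 reads, and 1 and 7 reads, in siNC and siLINP1, few beside those of CASP2.

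CASP9 encodes the initiator that APAF1 activates (chr1:15817896-15851285, minus strand). It was counted 336 times in siNC and 275 times in siLINP1, or 5.40 and 5.41 RPKM. Its log2 fold change of -0.08 had an interval from -0.31 to 0.15, which leaves room for a fold between 1.24 lower and 1.11 higher. The RPKM values of CASP9 were nearly equal, and the sign of its change turned positive, to 0.0026, when libraries were scaled by total count.

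APAF1, the scaffold, is on the plus strand of chromosome 12 (chr12:99039078-99129211). It was counted 628 times in siNC and 442 times in siLINP1, or 4.64 and 4.0 RPKM. The log2 fold change was -0.30 (95% interval -0.48 to -0.12), 1.23-fold lower (1.09 to 1.39) and short of 1.5-fold. Among 3241 genes of like depth, 20.6% were at least as far below 0. The last 643 bases of APAF1 overlap ANKS1B on the opposite strand, which had 46 and 47 reads, and the strand setting of the counting is not given in the sources used here. Summed, APAF1 and CASP9 had 964 and 717 reads, with log2 fold change -0.22 (-0.36 to -0.08), and APAF1 gave 65.1% and 61.6% of them. Total-count scaling raises log2 values by 0.08, which brings the upper end of the interval of this sum slightly above 0.

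CASP6 is classed with the executioners and cuts nuclear lamins (chr4:110609785-110624629, minus strand). It was counted 144 times in siNC and 122 times in siLINP1, or 4.60 and 4.77 RPKM, with a log2 fold change of -0.03 (95% interval -0.39 to 0.33). An antisense gene within CASP6 had 1 and 5 reads. Scaling by total count turned the sign of CASP6, to 0.05.

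CASP4 encodes an inflammatory caspase that senses cytosolic lipopolysaccharide (chr11:104813594-104839325, minus strand). It was counted 815 times in siNC and 670 times in siLINP1, or 30.5 and 30.7 RPKM. The log2 fold change was -0.07 (95% interval -0.22 to 0.08), and 41.6% of 3373 genes of like depth were at least as far below 0. Scaling by total count gave 0.009. CASP4 was the most abundant of the 8 mRNAs per length, with no difference detectable beyond counting error.

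CASP1, the caspase that matures interleukin-1 beta, lies on the minus strand of the same region (chr11:104896235-104905884). It was counted 22 times in siNC and 5 times in siLINP1, or 0.582 and 0.162 RPKM. It fell by 1.93 on the log2 scale (95% interval -3.69 to -0.49), a fold between 1.41 and 12.9 lower, so the nearer end was inside 1.5-fold. Among 2343 genes of like depth, 2.82% were at least as far below 0. A pseudocount of 5 on the scaled counts gave -1.29, and a minimum of 100 reads removes the gene. CASP1 has close copies in its cluster, so the assignment of its few reads is uncertain: CARD16, which resembles the CARD domain of CASP1, had 13 and 6 reads, CASP5 had 0 and 1, CASP12 had 0 and 3, and CARD17 and CARD18 had 0 in each library.

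CASP1 is expressed in myeloid cells, so blood cell markers are given beside it. Of the 8 markers, 7 were under 1 RPKM in siNC and 6 in siLINP1, and their sum was 50.3 and 48.5 RPKM, nearly all from CD68. CD14 had 12 and 3 reads and LYZ had 28 and 11 reads, lower in siLINP1 like CASP1, whereas ITGAM had 12 and 148 reads. PTPRC, the general leukocyte marker, had 1 and 4 reads, and CD3E had 0 in each library. The part of such cells in the CASP1 reads was not tested.

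**Figure D2:**
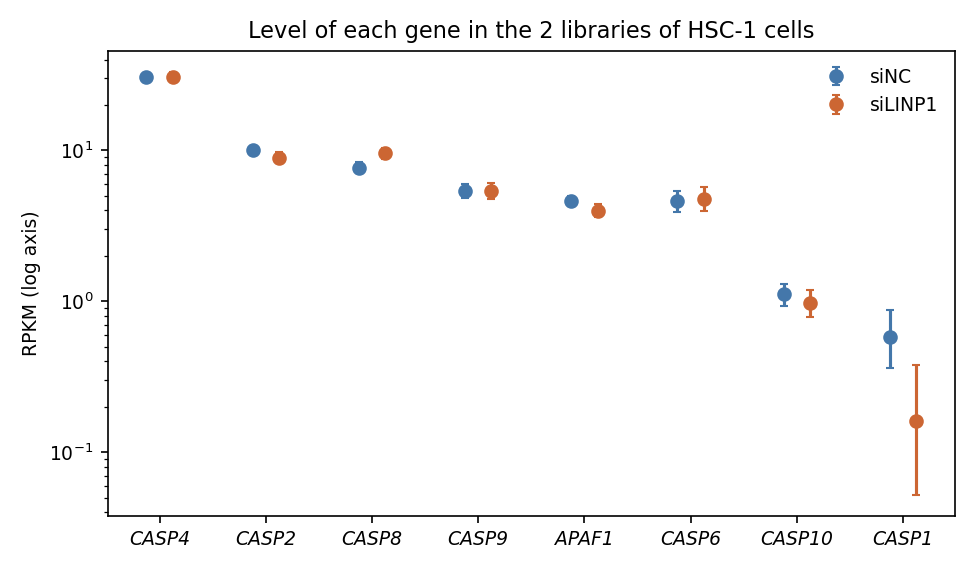
Level of each of the 8 genes in RPKM in the siNC and siLINP1 libraries, 1 library each, with 95% counting intervals. CASP4 sits highest at 30.5 and 30.7 RPKM and CASP1 lowest at 0.582 and 0.162 RPKM.

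The levels spanned a wide range per length. In siNC the order was CASP4, CASP2, CASP8, CASP9, APAF1, CASP6, CASP10 and CASP1, and the counting intervals of neighbours overlapped for CASP9 with APAF1 and for APAF1 with CASP6. In siLINP1 the order was CASP4, CASP8, CASP2, CASP9, CASP6, APAF1, CASP10 and CASP1, with overlap for CASP8 with CASP2, CASP9 with CASP6, and CASP6 with APAF1. CASP4 exceeded 87.9% of the genes kept in siNC and 87.6% in siLINP1. CASP10 exceeded 28.2% and 24.7%. Together the 8 genes took 3434 of the counted reads in siNC and 2752 in siLINP1.

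**Figure D3:**
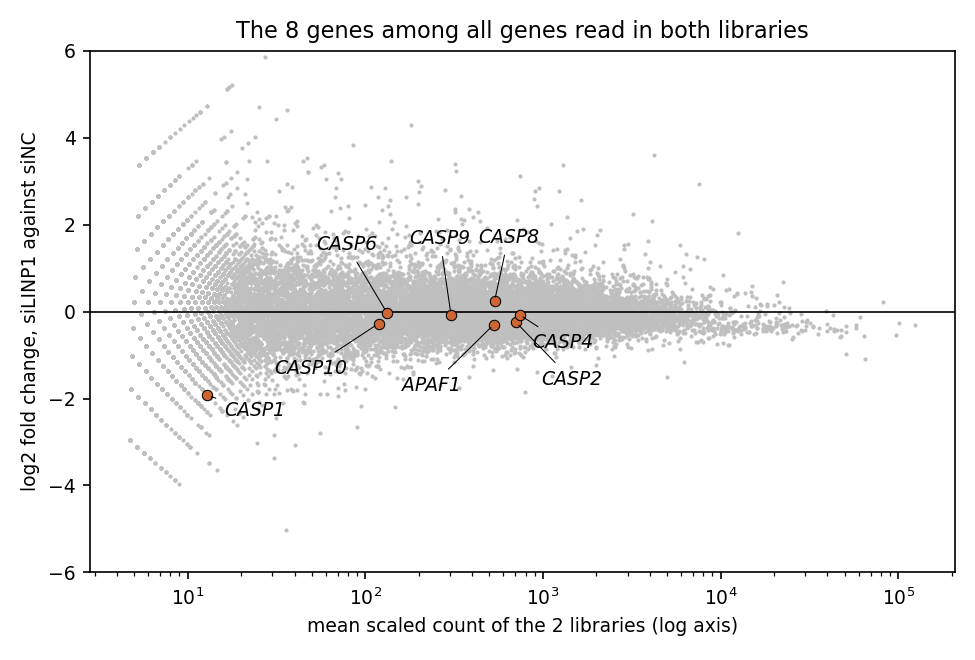
Log2 fold change against mean scaled count for the 19795 genes kept that had reads in both libraries, with the 8 genes marked. The other members lie inside the cloud of genes of like count, and CASP1 lies at low count where the cloud is widest.

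By class, the 4 initiator genes were together counted 1825 times in siNC and 1513 times in siLINP1, with log2 fold change -0.06 (95% interval -0.16 to 0.04), or 0.02 when scaled by total count. The 2 inflammatory genes had 837 and 675 reads, with log2 fold change -0.10 (-0.25 to 0.05), of which CASP4 gave 97.4% and 99.3%. All 8 genes together had a log2 fold change of -0.11 (-0.18 to -0.04). With total-count scaling, which raises log2 values by 0.08, the upper end of this interval becomes positive. A lower level of the 8 genes together thus depends on the scaling.

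Ratios between members within a library need no scaling. Of the 28 pairs, 12 had an interval of the change in ratio beyond 0, unadjusted for the number of pairs. Pairs that share a gene reuse its reads, so they are not separate results. The share among pairs of other genes was not computed. All 7 pairs with CASP1 were among them, as were 6 of the 7 with CASP8, the exception being CASP6. Of the 15 pairs without CASP1 and CASP8, 0 were. The ratio of CASP8 to APAF1 was 0.839 in siNC and 1.22 in siLINP1, a log2 change of 0.54 (95% interval 0.28 to 0.79). The ratio of CASP9 to APAF1 was 0.535 and 0.622, a log2 change of 0.22 (-0.08 to 0.51).

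**Figure D4:**
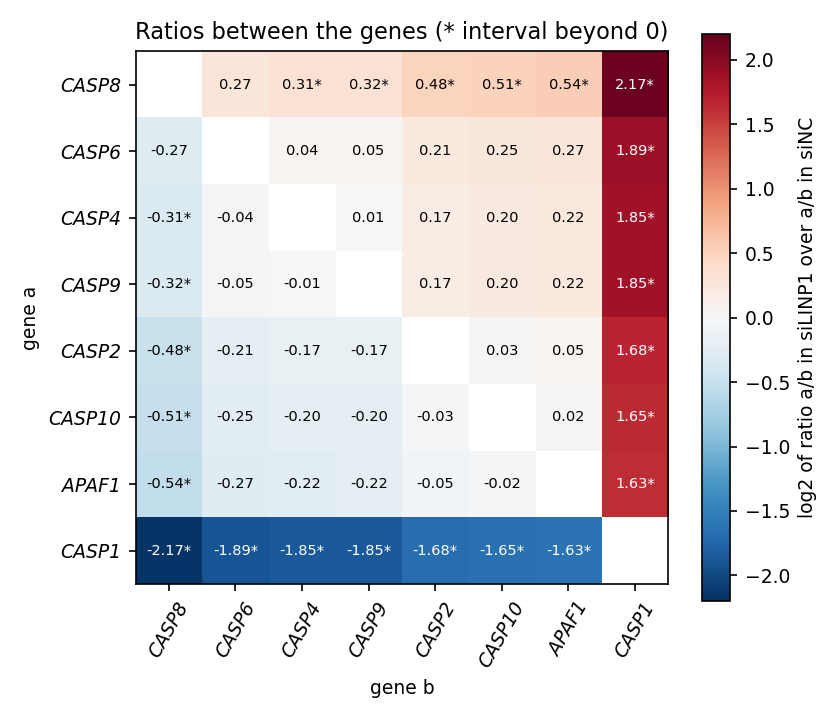
Log2 change in the ratio of reads, siLINP1 against siNC, for each of the 28 pairs of the 8 genes, as a colour map with the value in each cell and a star where the interval lies beyond 0. Pairs with CASP1 and most pairs with CASP8 have intervals beyond 0, 12 of 28 in all. Pairs that share a gene reuse its reads.

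Caspase-8 acts with its binding partners, and the proportion of CASP8 reads to those of CFLAR and FADD differed between libraries by less than counting error. CFLAR, an inhibitor of caspase-8 encoded beside it, was counted 532 times in siNC and 537 times in siLINP1. The ratio of CASP8 to CFLAR was 0.991 and 1.00, a log2 change of 0.02 (95% interval -0.23 to 0.27). FADD had 1283 and 1309 reads, and the ratio of CASP8 to FADD was 0.411 in each library, with an interval of the log2 change from -0.21 to 0.21. TNFRSF10B, which encodes the death receptor DR5, rose from 3623 to 4903 reads, with log2 fold change 0.65 (0.58 to 0.71), and the ratio of CASP8 to it changed on the log2 scale by -0.41 (-0.59 to -0.22). FAS rose from 430 to 689 reads, with log2 fold change 0.89 (0.71 to 1.07).

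Of the 20 symbols listed for the death receptor complex and the PIDDosome, 19 were in the count table and 16 were kept. The background for all genes kept was 14.4% higher and 13.0% lower by more than 1.5-fold. TNFRSF10B and FAS were the 2 higher by more than 1.5-fold, and 0 were lower. The counting interval lay above 0 for 7 of the 16 and below 0 for 4, against 23.0% and 25.6% of all genes kept. Among those below was TNFRSF1A, another receptor gene, with 5515 and 3615 reads (-0.40, -0.46 to -0.34). The median log2 fold change was 0.08. It turned to -0.11 with a minimum of 1 read, which let in genes with at most 3 reads in siNC and 0 in siLINP1. PIDD1 had 961 and 699 reads, and the ratio of CASP2 to PIDD1 was 0.855 in siNC and 0.858 in siLINP1, a log2 change of 0.01 (95% interval -0.21 to 0.22). CRADD had 154 and 150 reads, and the ratio of CASP2 to CRADD went from 5.34 to 4.0, a log2 change of -0.42 (-0.79 to -0.05).

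Of the 19 symbols listed as inputs and inhibitors of the apoptosome, 18 were in the count table and 17 were kept. By more than 1.5-fold, 1 was higher, against 14.4% of all genes kept, and 2 were lower, against 13.0%. The median log2 fold change was -0.14, beside -0.023 over all genes kept, and turned to 0.02 with a minimum of 100 reads. CYCS, which encodes cytochrome c, had 1970 and 1732 reads, with log2 fold change 0.02 (95% interval -0.07 to 0.12), and the ratio of APAF1 to CYCS changed on the log2 scale by -0.32 (-0.52 to -0.12). XIAP, an inhibitor of caspase-9, had 1367 and 1229 reads, with log2 fold change 0.06 (-0.06 to 0.17). DIABLO, which relieves inhibition by XIAP, had 1437 and 1097 reads, with log2 fold change -0.18 (-0.29 to -0.07). BIRC2, the gene of cIAP1, rose from 1209 to 1729 reads, with log2 fold change 0.73 (0.62 to 0.83). NOL3, which encodes the caspase inhibitor ARC, fell from 778 to 374 reads, with log2 fold change -0.85 (-1.03 to -0.67).

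Of the 26 symbols listed for inflammasomes and pyroptosis, 25 were in the count table and 20 were kept. By more than 1.5-fold, 2 were higher, against 14.4% of all genes kept, and 5 were lower, against 13.0%. The median log2 fold change was -0.27, beside -0.023 over all genes kept. PYCARD, the adaptor ASC that recruits caspase-1, had 1 read in each library. IL1B, whose product caspase-1 matures, fell from 266 to 95 reads, with log2 fold change -1.28 (95% interval -1.63 to -0.93). AIM2, a sensor of cytosolic DNA, rose from 68 to 127 reads (1.11, 0.67 to 1.56), and GBP5, an interferon-induced gene, rose from 15 to 118 reads (3.19, 2.41 to 4.07). The other GBP genes of the list did not rise. GBP2 had 297 and 152 reads (-0.76, -1.05 to -0.47), and GBP1 had 205 and 148 reads (-0.26, -0.58 to 0.05). DFNA5, the gene of gasdermin E, fell from 678 to 360 reads (-0.70, -0.89 to -0.52). GSDMD, the gene of gasdermin D, had 1191 and 853 reads and a log2 fold change of -0.27 (-0.40 to -0.14), and the ratio of CASP4 to GSDMD was 0.684 and 0.785, a log2 change of 0.20 whose interval, from 0.00099 to 0.40, barely cleared 0.

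Of the 28 symbols listed as caspase substrates of the execution phase, 26 were in the count table and 25 were kept. Of these, 0 passed 1.5-fold upward, against 14.4% of all genes kept, and 2 downward, against 13.0%. Their median was 4064 reads over both libraries, beside 437 over all genes kept. It was 2534 for the apoptosome list, 1571.5 for the death receptor list and 281 for the inflammasome list. The shares over all genes kept are thus not matched to the lists in depth. The median log2 fold change was -0.10, beside -0.023 over all genes kept. GSN, which encodes the actin-severing protein gelsolin, fell from 8205 to 3891 reads, with log2 fold change -0.87 (95% interval -0.92 to -0.81).

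**Figure D5:**
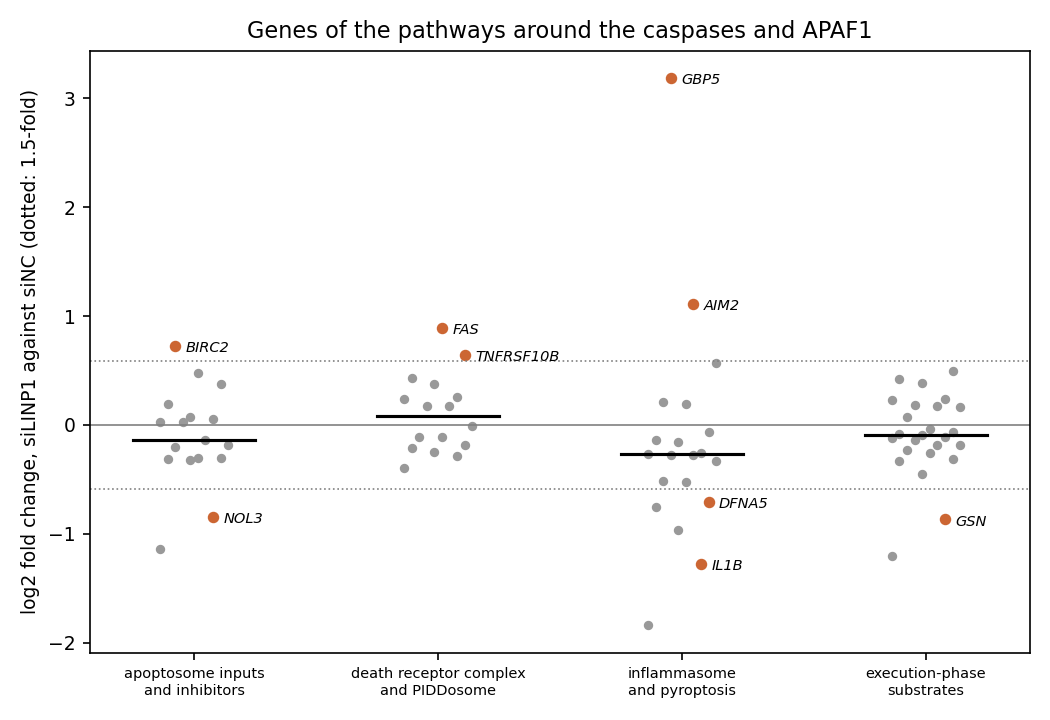
Log2 fold change, siLINP1 against siNC, of each gene kept in 4 lists of pathway genes, with bars at the median and dotted lines at 1.5-fold. GBP5 at 3.19 and FAS at 0.89 stand highest in their lists, and IL1B at -1.28 is the lowest of the labelled genes.

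The promoter of CASP8 is shown because CASP8 was the member with an interval above 0, and that of APAF1 for contrast, since it had an interval below 0. RefSeq gave 10 promoter windows for 6 of the 8 genes, from 250 bases before to 50 bases after the start, in GRCh38.p14. CASP1 and CASP10 had no window, so their promoters were not searched. Capitals mark matches to a motif searched on both strands, GAAANNGAA (interferon response), TTCNNNGAA (STAT) or GGGNNTTCC (NF-kB like). The first CASP8 window is chr2:201233213-201233512 and the APAF1 window is chr12:98645040-98645339, both on the plus strand.
CASP8: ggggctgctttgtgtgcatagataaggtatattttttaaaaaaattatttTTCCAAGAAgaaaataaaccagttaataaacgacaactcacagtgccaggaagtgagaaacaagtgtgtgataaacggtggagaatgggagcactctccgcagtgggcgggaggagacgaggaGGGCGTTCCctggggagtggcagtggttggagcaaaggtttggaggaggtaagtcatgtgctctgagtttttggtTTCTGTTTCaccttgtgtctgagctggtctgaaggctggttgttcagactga
APAF1: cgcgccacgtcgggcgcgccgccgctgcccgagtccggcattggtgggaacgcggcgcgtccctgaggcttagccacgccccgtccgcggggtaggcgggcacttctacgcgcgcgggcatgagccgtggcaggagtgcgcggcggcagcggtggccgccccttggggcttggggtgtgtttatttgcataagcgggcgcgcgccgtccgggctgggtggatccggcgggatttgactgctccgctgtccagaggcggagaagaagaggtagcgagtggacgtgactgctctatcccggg
The first CASP8 window held 1 match to each motif and was the only one of the 10 windows with any, and the matches do not overlap each other. The motifs were found in 8.11%, 7.66% and 6.58% of 35116 promoters of the same length, in the order given. The share of promoters with a match to any of them, or to all, was not computed. The APAF1 window had a GC content of 71.3% and the CASP8 window 46.3%, beside a median of 58.7% over all promoters. A match is a description of the letters and does not mark a bound site.

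The 3'UTR of CASP10 holds sites that pair with bases 2 to 8 of the siRNA guides, 1 for each siRNA. Of the 19426 genes with an annotated 3'UTR, 14.4% held a site for siLINP1_01, 11.9% for siLINP1_02 and 22.8% for at least 1 of them. The share with a site for both, as in CASP10, was not computed. The 3'UTR of CASP10, at 3927 bases, is the longest of the 8 genes. The CASP10 windows are shown in GRCh37, on the plus strand, with the site in capitals.
CASP10 for siLINP1_01, chr2:202084612-202084638: actggatttgACTTCAGccaggtgaac
CASP10 for siLINP1_02, chr2:202083658-202083684: ctcagctgctCTGCAAGcagaaacttt
CASP10 had a log2 fold change of -0.28 with an interval across 0. The part of these sites in that value was not tested.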

How the data were processed

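RNA of HSC-1 cells given either siRNA was sequenced, 1 library per condition. Per the paper's methods, the authors used Tophat2 for alignment (GRCh37/hg19) and HTSeq for counting. The submitters' processing notes also name HISAT2, HISAT and Bowtie2. The deposited values used here were raw read counts per gene. The authors also deposited RPKM values, made from count, gene length and library total, and these were recomputed here. A further 12 per-sample columns were left unused.

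Counts were scaled by median-of-ratios factors over all genes, and genes with fewer than 10 reads in both libraries together were left out. A gene was called past 1.5-fold. The 8 genes, the pathway lists and the naming rule were chosen with earlier results of these data known. Named from each list were at most 4 genes past 1.5-fold with at least 100 reads, and fixed partners of the 8 genes. GBP1 and GBP2 were named in addition, beside GBP5, and TNFRSF1A beside TNFRSF10B and FAS. Some results on single genes, 1 gene list and 1 site are not reported here. Alternatives were total-count, edgeR TMM and upper quartile scaling, protein-coding genes only, removal of the trend with mean count, pseudocounts of 1 and 5, and minima of 1 and 100 reads. The calculations were tested on simulated data with counting error only, so spread between cultures was not part of that test. TMM factors came from edgeR 4.0.16 in R 4.3.3, intervals from scipy 1.17.1, the trend from statsmodels 0.14.6 and tables from pandas 2.3.3 under Python 3.11.15.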

Additional observations from a re-analysis of the deposited data

How the results depend on the processing

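Each condition had 1 library, so the spread between cultures is unknown and intervals cover counting error only. No paired analysis was possible because each condition had 1 library and no test was made. Under 9 alternatives, all 71 values of single members stayed inside their counting intervals. This was largely fixed in advance. The minima of 1 and 100 reads leave a member's own value unchanged. The other scalings shift all genes alike, by at most 0.08, which is less than the distance to any interval end. No value past 1.5-fold changed sign. Some smaller values did. Scaling by total count raised every log2 value by 0.08 and turned CASP4, CASP6 and CASP9 to 0.009, 0.05 and 0.0026 and the initiator sum to 0.02. CASP6 was also above 0, at 0.0018 and 0.0033, with protein-coding genes only and with the trend removed. The minimum of reads moved counts most, since it sets how many genes are compared. A minimum of 1 read gave 7048 higher and 6456 lower genes past 1.5-fold, 2 of the apoptosome inputs were higher, and 3 of the death receptor genes were lower, whose median turned to -0.11. The genes that this added to these 2 lists had at most 4 reads over both libraries. A minimum of 100 reads gave 1163 and 903, and 0 of the 8 members (CASP1 was left out), 1 apoptosome input and 1 substrate were lower, and the median of the apoptosome inputs turned to 0.02. Removal of the trend with mean count put 1 substrate higher.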

Other observations

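The genes around CASP10 and CASP8 on chromosome 2 did not share a direction. Within 200000 bases of the cluster, FAM126B had 321 reads in siNC and 455 in siLINP1, a log2 fold change of 0.71 (95% interval 0.50 to 0.92), and TRAK2 had 558 and 614 reads (0.35, 0.18 to 0.52). STRADB had 287 and 174 reads (-0.51, -0.79 to -0.24), and NDUFB3, which encodes a subunit of mitochondrial complex I, had 466 and 319 reads (-0.34, -0.55 to -0.13). CFLAR-AS1, antisense to CFLAR, had 12 and 24 reads (1.21, 0.15 to 2.34), and without a stated strand setting its reads and those of CFLAR cannot be told apart. These genes were chosen after their values were seen.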
